A study of Mus musculus with 14 samples.

Results

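The genes described here are Pax-, Six- and Eya-family regulators that act upstream in the muscle lineage: Pax3, Pax7, Six2, Six4, Six5, Eya1, Eya2, Eya3 and Eya4. These 9 genes were matched by the gene name attached to each ChIP-seq peak in the deposited lists, of which there are 12, and a gene with no listed peak counted as not bound. In all, 5 of the 9 genes had a listed peak. They held 9 of the 10303 peaks of the series and 7 of its 6557 merged regions, where peaks of any library that overlapped by at least 1 bp were joined. All 9 peaks came from the MyoD libraries of activated muscle stem cells.

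The study mapped MyoD and MyoG, transcription factors that drive muscle differentiation, in muscle stem cells (MuSCs) of the tibialis anterior (TA), a shin muscle, to ask if they act on mitochondrial genes as muscle regenerates. The mice are labelled wild-type and carried a mito-Dendra2 allele, a fluorescent protein of mitochondria, switched on by a Pax7-Cre(ERT2) driver, so that Pax7-expressing cells and their progeny were marked in every group. All mice received tamoxifen at 75 mg/kg once a day on 5 days. Then, 2 days after the last dose, 50 µL of 1.2% BaCl2 was injected into 1 TA to injure it, and saline into the contralateral TA. Quiescent cells (QSCs; CD34+, Dendra2+, DAPI-) were sorted from the saline-injected muscle and activated cells (ASCs; CD34-, Dendra2+, DAPI-) from the injured muscle 2 days after injury. ChIP was done with an antibody to MyoD or to MyoG in either state, which makes 4 groups of 3 replicates, and another 2 samples are inputs, not analysed here. The study calls the libraries of a group biological replicates. The labels do not say whether each came from 1 mouse or a pool of mice, and they give no age for the mice.

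Pax3 and Pax7 are paired-box factors that specify muscle progenitors, and Pax7 marks adult MuSCs. Six-family proteins are homeobox factors that bind a DNA element known as the MEF3 site, found for example in the promoter of Myog, the gene of MyoG. Eya proteins do not bind DNA themselves but join Six-family proteins as coactivators and carry a phosphatase domain. In the embryo these families lie upstream of the myogenic factors, among them MyoD, so a MyoD peak at such a gene places the downstream factor near the gene of an upstream regulator.

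The lists hold no reads, so sequencing depth is unknown. The ASC MyoD lists held 2262 to 2652 peaks, the ASC MyoG lists 605 to 916, and the QSC lists 120 to 174. Peaks are scored as minus 10 log10 p of the call, and no listed peak scored below 50.0, which is a p-value of 1e-05. Deeper libraries give higher scores, and signal under the threshold is not listed. A gene without a peak is thus a gene whose name was given to no listed peak, which does not show that the factor was absent.

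Peaks at the 9 genes were few, and they were divided unevenly among the families. Each of the 4 Eya genes had at least 1 MyoD peak in ASCs, Pax7 had 1, and Pax3, Six2, Six4 and Six5 had none in any library. At least 1 peak in an ASC MyoD library was thus found at 5 of 9 genes (55.6%). Among 21887 protein-coding genes of RefSeq, the share was 10.7%. The share differed with gene length. It was 31.8% among coding genes that span at least 80 kb and 5.33% among those under 30 kb. The Eya genes and Pax7 span 85.7 to 248 kb, Six2, Six4 and Six5 4.01 to 25.5 kb, and Pax3, which had no peak, 95.9 kb. The part of gene length in the family pattern was not tested. With MyoG in ASCs, 0 of 9 genes had a peak, against 3.36% of coding genes. In QSCs, 0 of 9 genes had a peak with MyoD (1.03% of coding genes) or with MyoG (1.27%). With background shares this low, counts of 0 in 9 are near the background. By library, ASC MyoD replicates 1, 2 and 3 held 2, 3 and 4 of the 9 peaks, and the other 9 libraries held none.

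**Figure D1:**
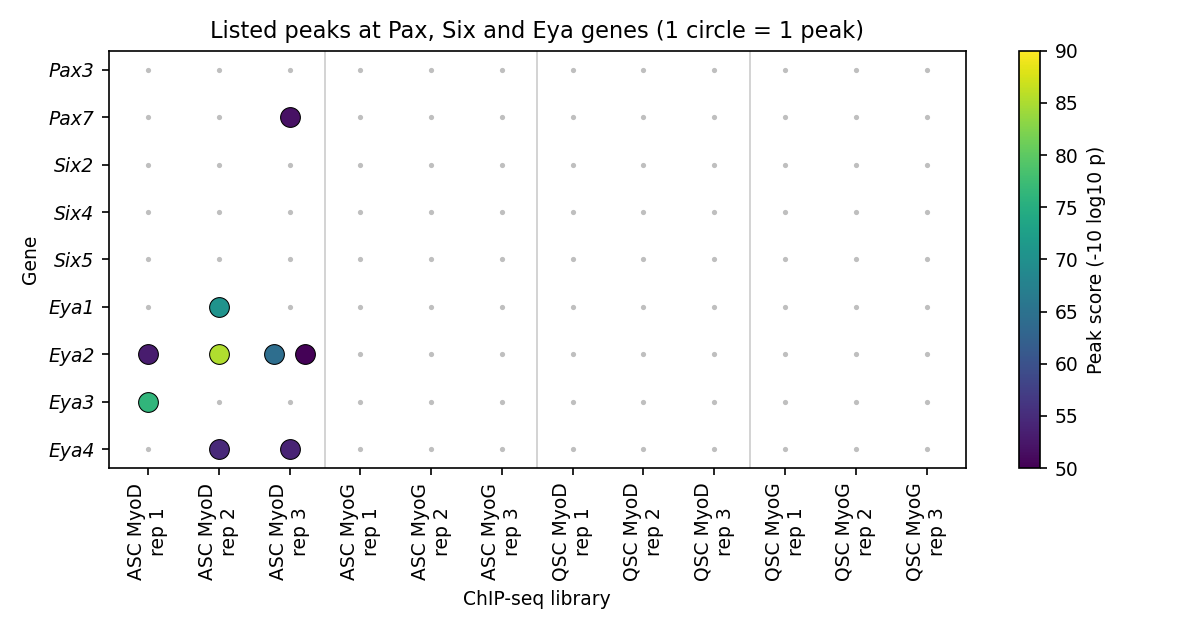
Listed peaks at the 9 genes (rows) in the 12 ChIP-seq libraries (columns, grouped by cell state and antibody). Each circle is 1 peak, coloured by its score (minus 10 log10 p), and a grey dot marks no listed peak; all 9 circles lie in the 3 ASC MyoD columns, and the Eya2 row has a circle in each of them.

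Eya2 (ENSMUSG00000017897), the coactivator gene with the most peaks of the 9, was the only gene of the set with a peak in all 3 ASC MyoD libraries. Its recurrent region lay in intron 1 of 15 (mm10, chr2:165629561-165630572), about 35.0 kb inside the RefSeq gene span. The scores there were 53.0, 85.2 and 50.3 in replicates 1, 2 and 3 (mean 62.8 ± 19.4, SD, n = 3). The 3 peaks overlapped one another over 675 bp, the whole width of the replicate 3 peak. The replicate 3 score was close to the lowest score of the lists, and in replicates 1 and 3 the peak ranked at the 8.73 and 1.05 percentile of its list, whereas in replicate 2 it ranked at the 64.5 percentile. No QSC MyoD library and no MyoG library had a peak in this region. It was therefore ASC-specific for MyoD, which here means a peak in at least 2 of 3 ASC libraries and in no QSC library with the same antibody. By this rule, 1976 of the 1986 regions with a peak in at least 2 ASC MyoD libraries were ASC-specific. The label thus adds little to the recurrence of a region in ASCs.

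A further Eya2 peak was called in replicate 3 alone, in a distal intergenic stretch 30.9 kb outside the gene span (chr2:165563272-165564087, score 64.3). Counting both regions, Eya2 had 1, 1 and 2 MyoD peaks in the ASC libraries (mean 1.33 ± 0.577, SD, n = 3) and 0, 0 and 0 in the QSC libraries. The groups did not overlap. Of all 3223 genes with a MyoD peak, 31.7% likewise had peak numbers in ASCs above those in QSCs without overlap. The exact two-sided permutation test gave a p-value of 0.1 for Eya2, the smallest that 3 libraries against 3 allow, and 0.312 after Benjamini-Hochberg adjustment over the 3223 genes. The design therefore cannot reach 0.05 for any gene.

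By the ASC-specific rule, 1 of 9 genes had such a region for MyoD, Eya2, where 5.77% of coding genes did. For MyoG the count was 0 of 9 (0.178% of coding genes), and for QSC-specific MyoD regions, defined in the converse way, it was 0 of 9 (0.0411%). These counts are near the background.

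At the other 3 Eya genes, each region had a peak in a single library. At Eya1 (ENSMUSG00000025932), replicate 2 had a peak annotated to the 5′ untranslated region (chr1:14304441-14305146, score 70.5), 6.24 kb inside the RefSeq span. At Eya3 (ENSMUSG00000028886), replicate 1 had a peak in intron 1 of 9 (chr4:132652688-132653386, score 76.2), 14.0 kb downstream of the nearest RefSeq start site. Eya4 (ENSMUSG00000010461) had a distal intergenic peak in replicate 3 (chr10:23358156-23358737, score 53.9), 8.50 kb upstream of the nearest start site, and another in replicate 2 (chr10:23532752-23533340, score 54.7), 183 kb upstream. The Eya4 peaks thus came from different libraries and different places, and no Eya4 region recurred. Eya4 peak numbers were 0, 1 and 1 in ASCs and 0 in each QSC library (exact permutation p-value 0.4, adjusted 0.743). Eya1 and Eya3 each had 1 peak in 1 of 3 ASC libraries and 0 in each QSC library, and their groups overlapped (exact permutation p-value 1.0 for each).

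Pax7 (ENSMUSG00000028736), the gene behind the driver that marked the sorted lineage, had 1 MyoD peak, in ASC replicate 3. It lay in intron 7 of 8 (chr4:139770883-139771731), 61.7 kb downstream of the start site, with a score of 51.8, at the 8.54 percentile of its list. Peak numbers were 0, 0 and 1 in ASCs and 0, 0 and 0 in QSCs (exact permutation p-value 1.0), so the groups overlapped. A region in 1 library is not distinguished from a single call here, and Pax7 was not in the ASC-specific set.

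The 9 peaks lay mostly in the lower part of the ASC MyoD lists by score, and 1 of their 7 regions recurred. Their scores ran from 50.3 to 85.2, with a median of 54.7, where the median over all 7210 ASC MyoD peaks was 72.1. In their own lists, 2 of 9 were above the median score (Eya2 in replicate 2 and Eya3 in replicate 1). A score of at least 80, a p-value of 1e-08, was reached by 1 of the 9 peaks, against 40.9% of all ASC MyoD peaks. Of the 7 regions, 1 (14.3%) had a peak in at least 2 ASC MyoD libraries, against 48.5% of the 4099 ASC MyoD regions, and the same region had a peak in all 3, against 27.0%. These are descriptions over a small set, with no test. Peak widths ran from 582 to 1012 bp, and 3 of 9 peaks were wider than the median of their list.

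**Figure D2:**
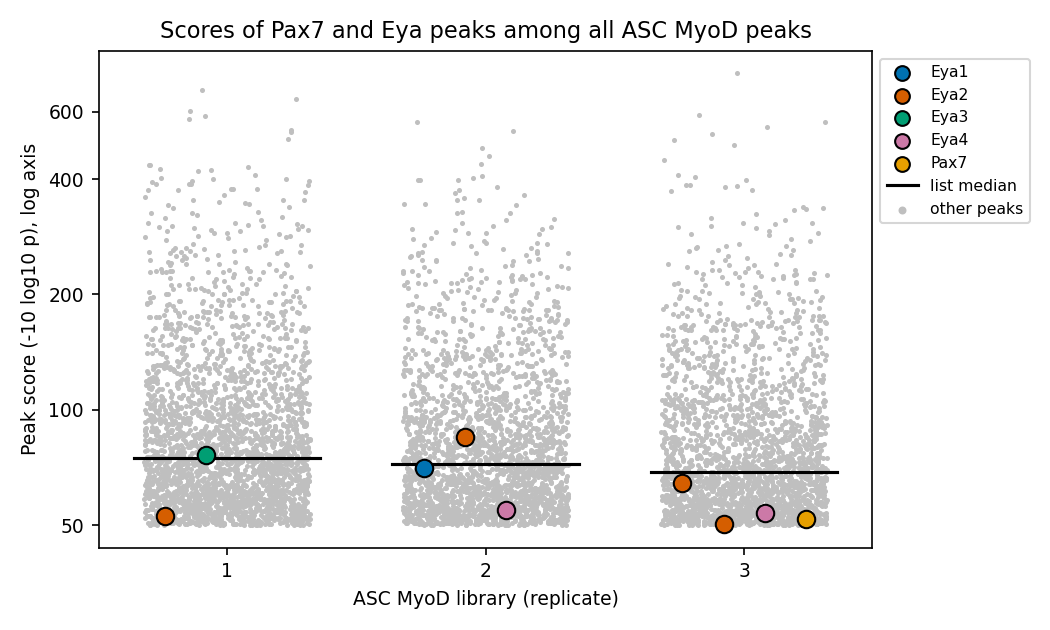
Peak scores (minus 10 log10 p, log axis) in the 3 ASC MyoD libraries (x axis), with all other peaks as small grey points spread sideways, the median of each list as a black line, and the 9 peaks at Eya genes and Pax7 as large coloured circles. The coloured circles sit between 50.3 and 85.2, and 7 of the 9 lie below the line of their list.

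By annotation, 5 of the 9 peaks were intronic, 3 were distal intergenic, 1 was in a 5′ untranslated region and 0 were at promoters, which in the lists reach 3 kb from a start site. Over all ASC MyoD peaks, 35.1% were intronic, 35.8% distal intergenic, 0.333% in a 5′ untranslated region and 22.5% at promoters. The 5 intronic peaks stand for 3 regions, since 3 of them are the recurrent region of Eya2.

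The promoters of these genes could be read for 6 of the 9 (Eya3, Eya4, Pax7, Six2, Six4 and Six5), in 8 windows of the RefSeq table (GRCm38.p6, the assembly also called mm10). None of the 8 windows, from 250 bases before to 50 after the start site, met a peak of any library. In the 250 bases before the start, the E-box CANNTG, the letters that MyoD and MyoG recognise, matched in 2 of 8 windows (Eya3 and an Eya4 window) and in 66.2% of all 32851 windows. The CAGCTG and CAGGTG forms of the E-box, which are also counted under CANNTG, matched in 0 of 8, against 13.0% and 17.2% of all windows. The AP-1 site TGANTCA matched in 1 of 8 (Six5) and in 6.75% of all windows. The MEF3 site TCAGGTTTC, searched like the others on both strands, matched in 1 of 8 windows, a Six4 window, and in 0.387% of all. The Six4 match reads on the opposite strand of the gene. It ends 91 bases before 1 of the 2 Six4 start sites of the table and is shown with 10 bases on either side, with the match in capitals (chr12:73113326-73113354, minus strand):

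Six4 MEF3 match: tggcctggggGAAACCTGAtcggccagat

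A match of letters does not show a bound site, and no MyoD or MyoG peak was listed there.

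Each peak carries a single gene name, so peaks close to a Pax-, Six- or Eya-family gene can carry the name of a neighbor. Within 200 kb of the gene span, a peak of any gene was listed with MyoD in ASCs for 7 of 9 genes (51.9% of coding genes), and with MyoG in ASCs for 2 of 9 (15.6%). In QSCs the count was 0 of 9 with MyoD (4.97% of coding genes) and 0 of 9 with MyoG (6.68%). The Pax3 and Six2 loci had no MyoD peak in this range. The nearest MyoD peak in ASCs was 335 kb from Pax3 and 469 kb from Six2. Near Pax3, MyoG peaks given to Sgpp2 were listed 78.1 and 78.7 kb away, 1 each in ASC replicates 1 and 2. They did not overlap (chr1:78275191-78275656 and chr1:78275797-78276384) but lay less than 500 bp apart. Since merging here needed an overlap of at least 1 bp, they counted as separate regions of 1 library each.

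Six4 had no peak of its own but lay near several of these regions. Within 200 kb of it, 4 ASC MyoD regions lay in introns of Mnat1, the gene of a subunit of the CDK-activating kinase complex. The region with the highest scores, in intron 7 of Mnat1 (chr12:73241590-73242747), was 128 kb from the Six4 span. It scored 574, 358 and 505 with MyoD in ASC replicates 1, 2 and 3 (mean 479 ± 110, SD, n = 3), at the 99.4 to 99.9 percentile of the lists. The same region had a MyoG peak in all 3 ASC libraries, with scores of 68.6, 70.1 and 88.7 (mean 75.8 ± 11.2). No QSC library had a peak there with either antibody. Another region in all 3 ASC MyoD libraries lay in intron 6 of Mnat1 (chr12:73206059-73207668, mean score 112 ± 48.4), 92.0 kb from Six4, and a further region, in intron 7, was listed in 2 libraries (mean score 74.0 ± 8.27).

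Six5 lay 9.44 kb from a strong region at the promoter of Dmpk, the myotonic dystrophy protein kinase gene. This region (chr7:19083963-19085099) scored 266, 268 and 168 in ASC MyoD replicates 1, 2 and 3 (mean 234 ± 57.4, SD, n = 3) and was absent from the QSC and MyoG lists. A promoter region of Rtn2, 192 kb away, was also in all 3 ASC MyoD libraries (mean score 126 ± 39.9). Counted by this distance in place of the gene name, 3 of 9 genes (Eya2, Six4 and Six5) had an ASC-specific MyoD region, 6 regions in all, where 32.9% of coding genes had such a region, so the count is near the background. With MyoG, 1 of 9 genes, Six4, had an ASC-specific region in range, against 1.0% of coding genes. With QSC-specific MyoD regions the count was 0 of 9, against 0.146%. Distance does not show which gene a region acts on.

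**Figure D3:**
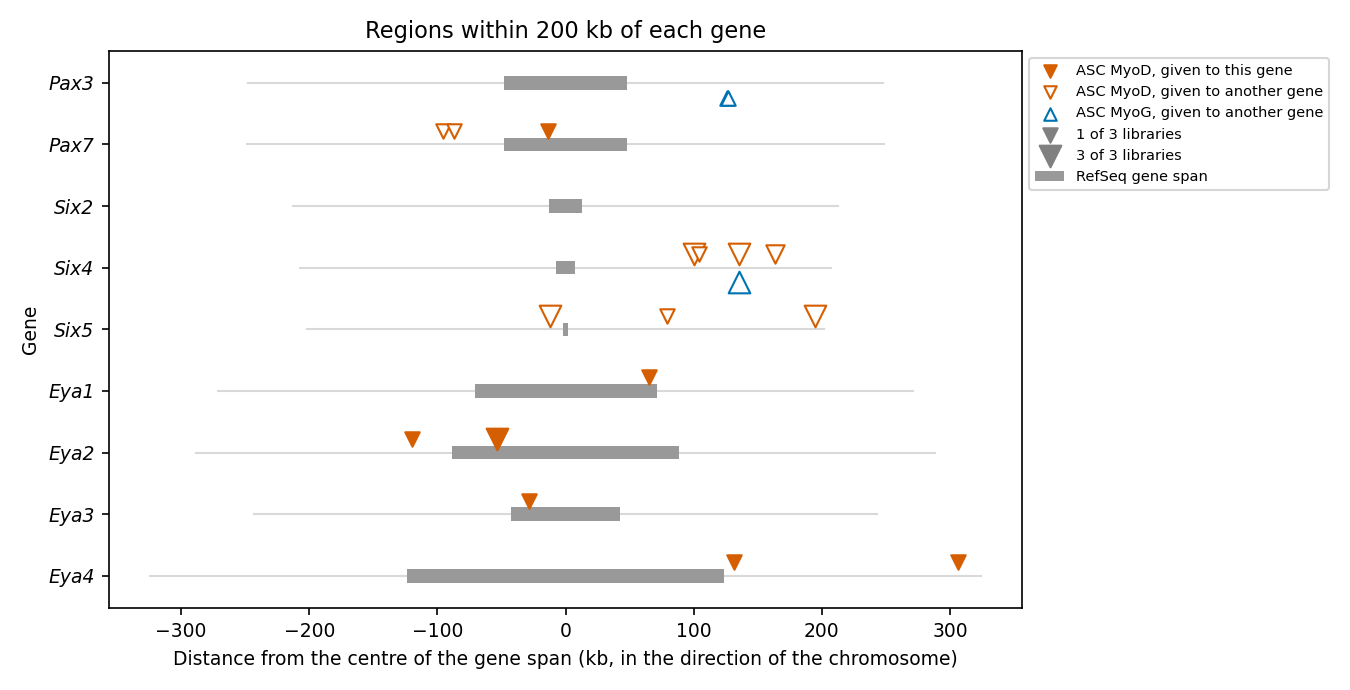
Regions within 200 kb of each of the 9 genes, placed by distance in kb from the centre of the gene span (grey bar; the thin line marks the range searched). Triangles pointing down are ASC MyoD regions, filled where the peak was given to that gene and open where it was given to another, triangles pointing up are ASC MyoG regions, and size grows with the number of libraries; the filled triangles sit at Pax7 and the Eya genes, and Six4 and Six5 have open ones only.

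The wider network was described from a list of 38 other genes. Of these, 12 (31.6%) had a MyoD peak in ASCs, against 10.7% of all coding genes, and 8 had an ASC-specific MyoD region, against 5.77%. The share with a MyoD peak in ASCs was 31.8% among coding genes of at least 80 kb and 5.33% among those under 30 kb. The lengths of the 38 genes were not taken into account. With MyoG in ASCs, 2 had a peak (3.36% of coding genes), Dach2 with 1 peak in replicate 1 and Slc12a2 with 2 peaks in replicate 3. In QSCs, 2 had a MyoD peak (1.03% of coding genes), Pax6 and Tle4 in 1 library each, and 0 had a MyoG peak (1.27%). The lists were picked by hand with earlier results of these data known, so these counts are a description, with no test. Among 9 other Pax- and Six-family genes, Pax5, better known from B cells, had an ASC-specific region in intron 6 (chr4:44633478-44634431), with scores of 73.3, 90.9 and 115 in replicates 1 to 3. Among 8 cofactor genes, Tle3, which encodes a Groucho corepressor, had a distal region in all 3 ASC MyoD libraries (mean score 145 ± 102, SD, n = 3) and another in 2. Among 10 other upstream regulators, Lhx2 had a distal region in 2 ASC MyoD libraries (scores 61.7 and 56.3).

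The highest mean scores among the network regions, at Fgfr4 and Met, were in the list of Pax3 and Pax7 targets. That list was taken from textbook knowledge but, like the others, with earlier results of these data known, so its counts are a description. Of 6 Pax3/Pax7 targets, 3 had ASC-specific MyoD regions, where 5.77% of coding genes did. The region in intron 4 of Met, the receptor of hepatocyte growth factor, scored 252, 218 and 149. Fgfr4, a fibroblast growth factor receptor, had a region in the 3′ untranslated region (mean score 190.2 ± 76.8) and a distal region (mean score 270 ± 55.4), both in all 3 libraries, and a distal region of Dmrt2 was in 2 libraries. Of 5 Six-family targets, 2 had ASC-specific MyoD regions, beside the same 5.77% of coding genes. The region of Ccnd1, the cyclin D1 gene, was 2 to 3 kb from the start site and scored 181, 104 and 112. The promoter region of Myog was in 2 libraries, with scores of 50.7 and 54.2, near the threshold of the lists.

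The Myog promoter is shown because a single window that a MyoD peak covers holds letter matches for both ends of this network. These are E-boxes, the letters that MyoD recognises, and a MEF3 site, the element of Six-family proteins. The E-box letters matched in 66.2% of all promoter windows, and a match of letters does not show a bound site. The 250 bases before the start site follow (RefSeq, GRCm38.p6, chr1:134289754-134290003, plus strand), with 2 E-boxes (CANNTG) and the MEF3 site (TCAGGTTTC) in capitals:

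Myog promoter: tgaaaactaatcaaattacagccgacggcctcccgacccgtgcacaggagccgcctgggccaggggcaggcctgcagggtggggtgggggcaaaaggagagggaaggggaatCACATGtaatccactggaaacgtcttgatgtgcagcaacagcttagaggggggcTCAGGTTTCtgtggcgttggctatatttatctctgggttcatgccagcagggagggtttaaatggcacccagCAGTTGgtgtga

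The E-boxes begin 138 and 12 bases before the start site, and the MEF3 site begins 84 bases before it. The ASC MyoD peaks of replicate 1 (chr1:134289444-134290198) and replicate 3 (chr1:134289472-134290235) both span this whole window.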

How the data were processed

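ChIP-seq was performed on QSCs and ASCs with antibodies to MyoD or MyoG, on chromatin fixed in 1% formaldehyde and sheared to about 500 bp. Per the labels' processing notes, the tools were BWA 0.7.5, MACS and deepTools 3.5.0, with build mm10. The deposited score is the authors' minus 10 log10 p of each MACS peak, and the other deposited columns used are positions (bp), gene name and gene part. How inputs were used, and any filter on peaks, are not given in the sources used here. A library with fewer reads can list fewer peaks, which could not be corrected.

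Peaks were merged into regions, and regions were classed by the libraries that held a peak. Peak numbers per gene were compared by exact permutation over libraries, with Benjamini-Hochberg adjustment over all genes with a peak. Gene names were matched to RefSeq symbols or unique synonyms (4104 of 4384). Python 3.11.15 with pandas 2.3.3 was used. The merging and classing of regions were tested on simulated data, and the p-value calculations on small fixed examples. Genes and lists were chosen with earlier results of these data known. All 9 genes were named, as were network genes with a region in at least 2 libraries. Other network genes were named only in counts, and neighboring genes were named after their values were seen. The 80-kb and 30-kb length classes and the 200-kb range were also chosen after the values were seen. A gene of the network list is not reported here.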

Additional observations from a re-analysis of the deposited data

How the results depend on the processing

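The count of ASC-specific MyoD regions at the 9 genes was 1, and of genes with such a region 1 (Eya2). Both were 0 with a score of at least 80, since only the replicate 2 peak of Eya2 passed. With a peak in at least 1 library they were 7 regions and 5 genes, which are the genes with any listed peak. With peaks of any gene within 200 kb, an alternative chosen after seeing the data, they were 6 regions and 3 of 9 genes (32.9% of coding genes under the same rule), and the count of genes with an ASC-specific MyoG region was 1 in place of 0 (1.0% of coding genes). Both MyoD counts were 1 under each of the other alternatives (a peak in all 3 libraries, overlap of 50% of both peaks, gaps of up to 500 bp, no distal intergenic peaks) and without any single MyoD replicate. The count of genes with a QSC-specific MyoD region was 0 throughout.

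With same-numbered libraries taken as pairs, the Eya2 difference of 1.33 peaks per library had an exact sign-flip p-value of 0.25, the smallest for 3 pairs. The sign-flip p-value was 0.5 for Eya4 (0.667) and 1.0 for Eya1, Eya3 and Pax7 (0.333 each). Over 6557 regions, deviations of same-numbered libraries had correlations of -0.01 to 0.01 in 18 pairs. A region without a peak in a group has no deviation there. Of the 1986 regions with a peak in at least 2 ASC MyoD libraries, 1976 had no QSC MyoD peak. These correlations therefore cannot tell whether the numbers pair the libraries.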
